A study of Mus musculus with 10 samples.

Results

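The 31 genes described here encode ion channels, their accessory subunits and connexins of the heart, and were measured by RNA-seq of hearts from male mice exposed before birth to anti-Müllerian hormone (AMH). They were taken by name from the 55335 genes of the deposited table, and all 31 were found. The list covers potassium channels, the sulphonylurea receptors that complete ATP-gated potassium channels, a pair of sodium channel genes, calcium channel subunits, pacemaker and cation channels, and connexins. Of these genes 24 had a mean of at least 1 FPKM (fragments scaled to transcript length and to the mapped fragments of the sample) over the 10 samples and were tested, and 7 did not reach it. Hcn4 passed with a mean under 1 FPKM in control hearts and above it in PAMH hearts.

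Control hearts came from 5 male offspring of dams given phosphate-buffered saline in pregnancy, labelled prenatal vehicle, and PAMH hearts from 5 male offspring of dams given AMH, labelled prenatal AMH. All were wild type and all were sampled as heart tissue. The AMH was given to the dam and not to the offspring, and such exposure has been studied in mice in relation to polycystic ovary syndrome. The sources used here give no strain, age, dose, litter, time of collection or part of the heart, so the p-values measure only the spread between these samples, which may be technical or shared within litters. Cardiomyocyte genes were abundant in every sample (summed level of 8 markers 5230 to 9340 FPKM). The atrial genes Myl7 and Sln were listed at 0 in 8 and 9 of the 10 samples, with Myl7 at 1.02 FPKM in PAMH replicate 3 and 0.962 FPKM in PAMH replicate 5 and Sln at 0.0394 FPKM in control replicate 5. Myl4, another atrial gene, was at 0.0915 to 0.306 FPKM. These 3 come from a list of 7 atrial markers, of which Dkk3 was at 0.177 to 0.469 FPKM and Bmp10 at most 0.0503 FPKM. The other members were clearly present, Nppa at 46.5 to 217 FPKM and Stard10 at 5.11 to 10.9 FPKM.

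The FPKM of a sample summed to between 654350 and 717453, and the read depth is unknown. Genes of the mitochondrial genome made up 55.3 to 56.8% of this sum in control samples. In PAMH replicates 1 to 5 they made up 53.6, 54.5, 56.6, 51.5 and 54.6%, below all controls except in replicate 3. Median ratio scaling, an alternative used below, divided control samples by 0.943 to 0.997 and PAMH samples by 0.979 to 1.09. PAMH replicates 4 and 5 had the fewest genes above 0 (16113 and 18037, against 19449 to 20625 in the other PAMH samples and 19664 to 21097 in control samples). In PAMH replicate 4 the median difference of log2(FPKM + 1) from the control mean was 0.26 in the fifth of genes with the highest GC content and -0.12 in the fifth with the lowest, a wider gap than in any other sample. The median log2 fold change of all 9439 tested genes was 0.07 in the deposited FPKM.

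Each heartbeat begins with an action potential, in which sodium and calcium channels carry inward current and several potassium channels carry the outward current that restores the resting potential. Pore-forming subunits set which ion passes, and accessory subunits set how many channels reach the membrane and how fast they open and close. The mouse ventricle repolarises mainly through fast outward currents, and the slow and rapid delayed rectifiers that are prominent in larger mammals contribute little in the adult mouse. Connexins form the gap junctions through which the action potential spreads from cell to cell.

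Of the 24 tested genes 3 rose in PAMH hearts, none fell and 21 did not pass the test (limma, adjusted p under 0.05). They were Kcnh2, the pore of the rapid delayed rectifier, Kcnj5, a subunit of the acetylcholine-gated potassium channel, and Cacnb2, the cardiac calcium channel beta subunit. The 3 genes were 12.5% of those tested, against 6.19% of all 9439 tested genes past the same threshold (4.95% higher and 1.24% lower). At an unadjusted p under 0.05, 6 of the genes were higher and 4 lower, 10 of 24, while 23.99% of all tested genes passed in limma. Positive log2 fold changes were found in 14 of 24 genes and in 67.3% of all tested genes. The median log2 fold change of the 24 was 0.02, and their median absolute value was 0.17, beside 0.12 for all tested genes. In 4 of the 24 the groups did not overlap (16.7%, against 8.44% of all tested genes). Of these, 2 were higher (Kcnh2 and Kcnj3), where 6.74% of all tested genes were, and 2 lower (Kcna5 and Kcnip2), where 1.71% were. With median ratio scaling, under which the median log2 fold change of all genes was -0.0036, 1 of the 24 was higher (Kcnh2) and 3 were lower (Kcna5, Kcnip2 and Cacna1c), and over all genes the split of 467 higher and 117 lower became 218 and 212.

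**Figure D1:**
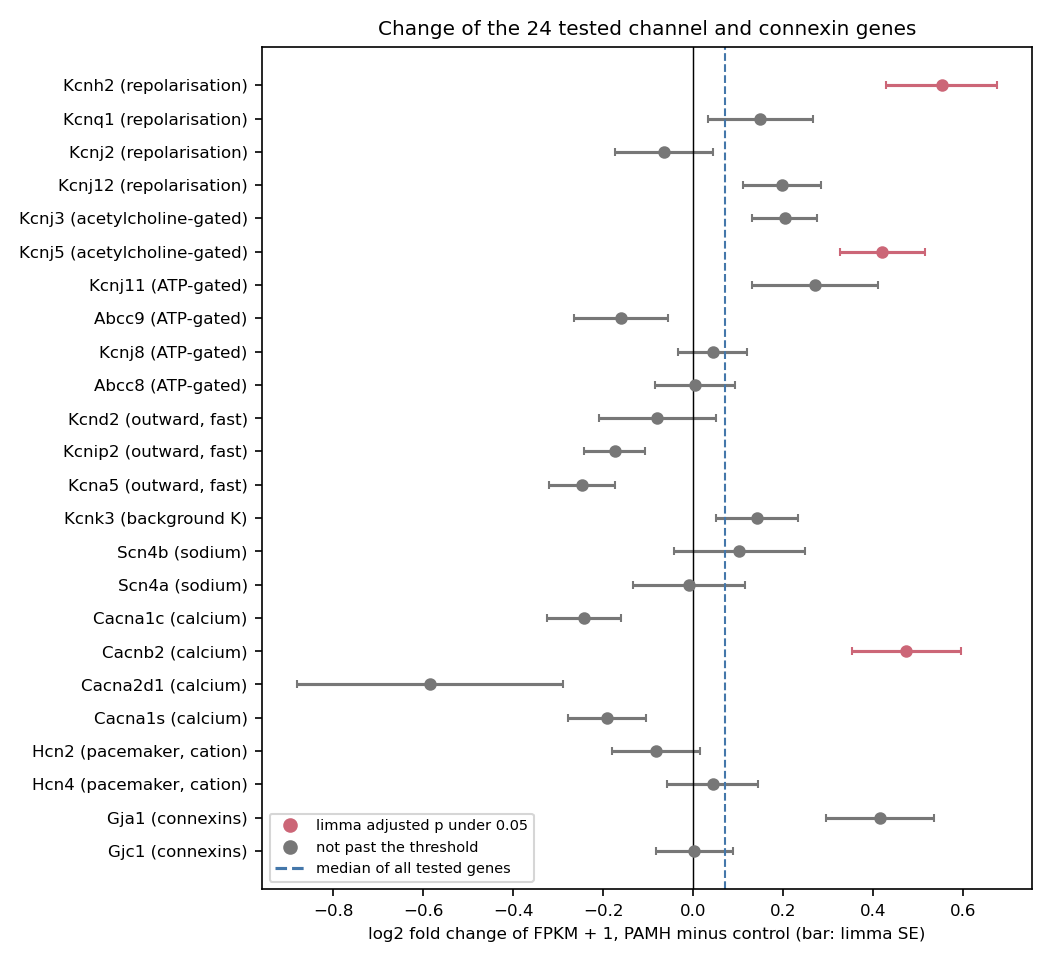
Log2 fold change of FPKM + 1, PAMH minus control, for the 24 tested genes in order of the current they serve. Points are limma estimates, bars are limma standard errors, red marks an adjusted p under 0.05 and the dashed line is the median of all tested genes (0.07). Kcnh2, Kcnj5 and Cacnb2 are the 3 red points, and Cacna2d1 has the lowest estimate (-0.58) with the widest bar.

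Start regions are shown for 5 genes, Kcnh2 and Kcnj5 because they rose, and Kcnj3, Kcna5 and Kcnip2 because their groups did not overlap, above the controls in Kcnj3 and below them in the others. RefSeq start windows (build GRCm38.p6, which has the coordinates of mm10) were available for 21 of the 31 genes. The 250 bases before the start are printed from 5′ to 3′ on the strand of the gene, for Kcnh2 (minus strand, chr5:24329592-24329841), Kcnj5 (minus strand, chr9:32344345-32344594), Kcnj3 (plus strand, chr2:55435720-55435969), Kcna5 (minus strand, chr6:126535556-126535805) and Kcnip2 (minus strand, chr19:45816064-45816313). Capitals mark matches on either strand to any of 6 short motifs. TATAAA is the core promoter element that positions the polymerase. CCAAT is the element known for nuclear factor Y binding. GGGCGG is the element known for Sp family binding. CACCC is the element known for Krüppel-like factor binding. CACGTG is the palindrome known for basic helix-loop-helix proteins. AGATAA is the element known for zinc finger proteins such as Gata4 in heart.
Kcnh2: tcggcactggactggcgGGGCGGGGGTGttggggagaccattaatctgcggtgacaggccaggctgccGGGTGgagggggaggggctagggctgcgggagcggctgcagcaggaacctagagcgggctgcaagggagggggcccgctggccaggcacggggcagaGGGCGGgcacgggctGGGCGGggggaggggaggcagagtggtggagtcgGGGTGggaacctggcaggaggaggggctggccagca
Kcnj5: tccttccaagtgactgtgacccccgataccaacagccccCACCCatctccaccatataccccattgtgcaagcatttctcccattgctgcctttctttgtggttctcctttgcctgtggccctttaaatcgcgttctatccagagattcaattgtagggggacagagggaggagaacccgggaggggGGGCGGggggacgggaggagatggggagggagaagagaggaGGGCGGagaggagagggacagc
Kcnj3: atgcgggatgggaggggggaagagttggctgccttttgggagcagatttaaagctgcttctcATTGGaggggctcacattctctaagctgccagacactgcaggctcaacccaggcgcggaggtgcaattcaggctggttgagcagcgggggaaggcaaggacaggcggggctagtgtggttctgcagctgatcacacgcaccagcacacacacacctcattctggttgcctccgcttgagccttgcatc
Kcna5: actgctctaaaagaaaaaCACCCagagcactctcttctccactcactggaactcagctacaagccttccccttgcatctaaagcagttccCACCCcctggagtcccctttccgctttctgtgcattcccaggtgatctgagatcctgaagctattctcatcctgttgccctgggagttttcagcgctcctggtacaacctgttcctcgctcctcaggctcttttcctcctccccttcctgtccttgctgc
Kcnip2: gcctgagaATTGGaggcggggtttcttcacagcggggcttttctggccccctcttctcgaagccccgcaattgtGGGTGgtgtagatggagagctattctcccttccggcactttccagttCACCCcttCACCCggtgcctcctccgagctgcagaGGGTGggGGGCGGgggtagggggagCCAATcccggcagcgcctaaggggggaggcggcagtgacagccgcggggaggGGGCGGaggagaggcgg
No matches shared bases with one another. Of the printed windows, that of Kcnj5 holds 6 bases of an annotated exon and the other 4 hold none. The Cacnb2 windows, which hold 250 and 66 exonic bases, are not printed. The RefSeq start lies 143 bases upstream of the GENCODE gene start in Kcna5 and 2 bases upstream in Kcnip2, 6 bases downstream in Kcnj5, and at the same base in Kcnj3. The Kcnh2 window lies in an intron, 22013 bases inside the GENCODE gene, before an internal start. It held 3 Sp elements and 3 Krüppel-like elements at 73.6% GC, where the median of all 32851 windows was 52.4%. Kcnip2 held 8 matches, of which 4 were Krüppel-like, 2 Sp and 2 nuclear factor Y elements. Kcnj5 held 2 Sp elements and 1 Krüppel-like element, Kcna5 held 2 Krüppel-like elements, and Kcnj3 held 1 nuclear factor Y element. The Sp element was found in 32.7% of all windows and in 13 of the 24 windows of these genes, and the Krüppel-like element in 52.0% and in 18 of 24. The core promoter element was found in 12.4% of all windows and in none of the 24. The nuclear factor Y, helix-loop-helix and zinc finger elements were in 33.8%, 6.02% and 9.99% of all windows and in 5, 1 and 1 of the 24. The letters are a description of the windows and say nothing on which factors bind there.

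Among the genes of the delayed and inward rectifiers, Kcnh2 rose and the other 3 tested did not pass. Kcnh2 encodes the pore of the rapid delayed rectifier (chromosome 5, 24319589 to 24351604, minus strand). It had 7.14, 7.65, 7.11, 6.26 and 7.06 FPKM in control replicates 1 to 5 and 11.7, 12.0, 7.98, 13.9 and 9.28 FPKM in PAMH replicates 1 to 5. All PAMH samples lay above all controls, PAMH replicate 3 only just and PAMH replicate 4 by the most. The mean rose from 7.05 ± 0.497 to 11.0 ± 2.35 FPKM (SD, n = 5 each), by a log2 fold change of 0.55 (SE 0.12, limma adjusted p = 0.0221). Transcripts of Kcnh2 average 60.8% GC. The change was 0.47 without PAMH replicate 4 (adjusted p = 0.0275 by limma) and 0.49 after removal of the dependence on length and GC content of transcripts, fitted in each sample (adjusted p = 0.0126 by limma). Leaving out control replicate 1, 3, 4 or 5 or PAMH replicate 1 or 2 brought the limma adjusted p to between 0.0509 and 0.0638, with log2 fold changes of 0.52 to 0.56.

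Kcnq1, the pore of the slow delayed rectifier, had 5.16, 6.55, 4.89, 5.08 and 4.90 FPKM in control and 6.29, 5.97, 4.39, 7.57 and 6.02 FPKM in PAMH replicates 1 to 5. The groups overlapped, and PAMH replicate 3 was the lowest of all 10 samples (limma adjusted p = 0.463, log2 fold change 0.15). Without PAMH replicate 4 the log2 fold change was 0.08, and without PAMH replicate 3 it was 0.24. Its partner Kcne1, which slows the opening of the channel, was under the filter at 1.06 ± 0.317 and 0.603 ± 0.178 FPKM, with 3 PAMH samples below all controls. The ratio of Kcne1 to Kcnq1 was 0.126, 0.215, 0.265, 0.217 and 0.168 in control and 0.0973, 0.126, 0.0737, 0.0753 and 0.127 in PAMH replicates 1 to 5. The ranges met at control replicate 1, which lay just under PAMH replicate 5, and no test was run on them.

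Kcnj2 and Kcnj12 encode the inward rectifiers that hold the resting potential of the ventricle. Kcnj2 had 3.65, 2.70, 2.64, 3.63 and 3.51 FPKM in control and 3.71, 3.36, 2.87, 2.39 and 2.88 FPKM in PAMH samples, with full overlap (limma adjusted p = 0.751, log2 fold change -0.06, SE 0.11). Kcnj12 averaged 5.38 ± 0.446 and 6.32 ± 0.778 FPKM, and 3 PAMH samples lay above all controls (limma adjusted p = 0.189, log2 fold change 0.20, SE 0.09). The ratio of Kcnj12 to Kcnj2 ranged from 1.27 to 2.13 in control and from 1.92 to 2.34 in PAMH hearts.

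**Figure D2:**
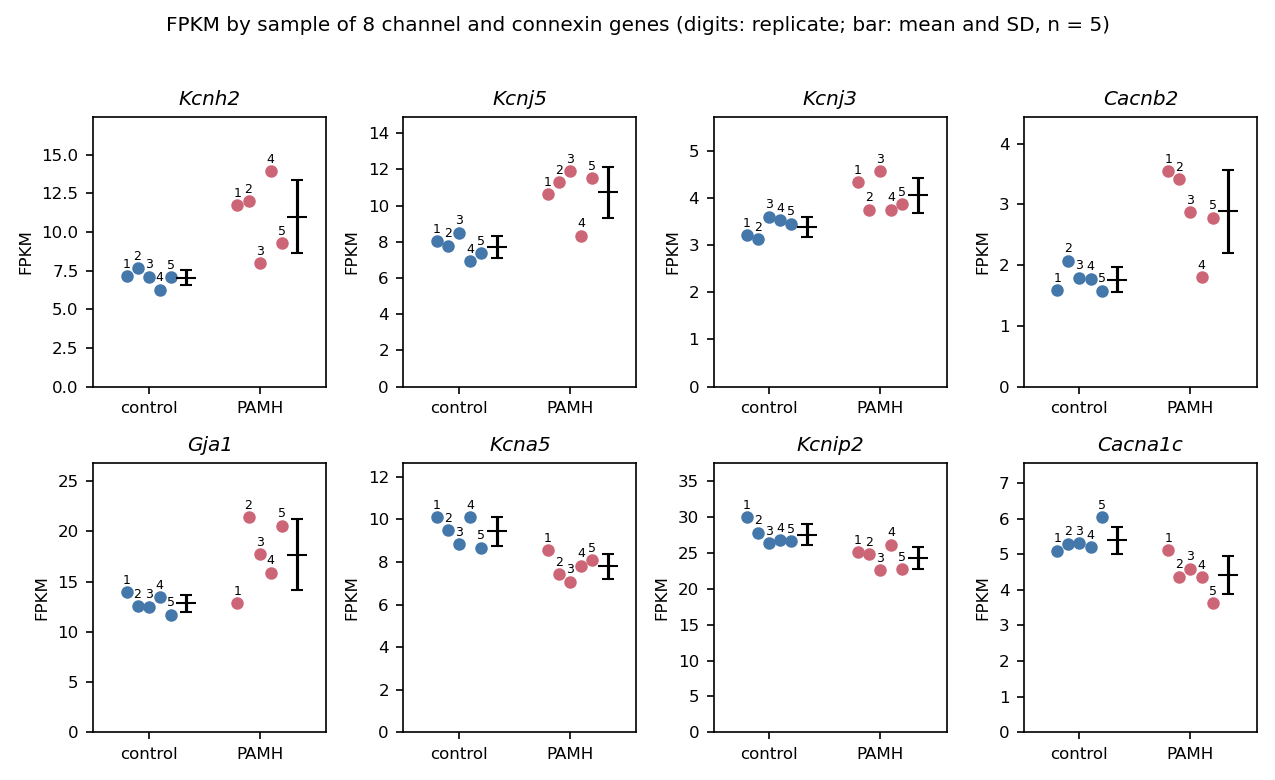
FPKM by sample of 8 genes in 5 control (blue) and 5 PAMH (red) hearts, with replicate numbers at the points and the mean and SD as a bar. All axes start at 0. Kcnh2 and Kcnj3 have every PAMH value above every control value, Kcna5 and Kcnip2 every PAMH value below, and the other 4 overlap by 1 sample or more.

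Both genes of the acetylcholine-gated potassium channel, through which the vagus slows the heart, had positive changes, and Kcnj5 passed the test. The channel is a tetramer of the products of Kcnj3 and Kcnj5 and is known best from the atrium and the sinus node. Kcnj5 (chromosome 9, 32314707 to 32344350, minus strand) had 8.03, 7.78, 8.5, 6.93 and 7.38 FPKM in control and 10.6, 11.3, 11.9, 8.34 and 11.5 FPKM in PAMH replicates 1 to 5. PAMH replicate 4 lay within the control range and the other 4 above it. The mean rose from 7.73 ± 0.599 to 10.7 ± 1.42 FPKM (limma adjusted p = 0.0223, log2 fold change 0.42, SE 0.09). The call ended with median ratio scaling (limma adjusted p = 0.0991, log2 fold change 0.33) and quantile normalization (0.31, adjusted p = 0.139 by limma). Without control replicate 4 or 5 or PAMH replicate 1, 2 or 5 the limma adjusted p was at or above 0.05 and at most 0.0661.

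Kcnj3 (chromosome 2, 55435970 to 55598145, plus strand) had 3.22, 3.13, 3.61, 3.53 and 3.46 FPKM in control and 4.34, 3.76, 4.58, 3.76 and 3.88 FPKM in PAMH hearts. No PAMH value fell in the control range, but the gap was small and the gene did not pass (limma adjusted p = 0.1104, log2 fold change 0.20, SE 0.07). It passed after removal of the length and GC trend (0.28, adjusted p = 0.0266 by limma). Kcnj3 shares 1621 of 5215 exonic bases with Gm26794 on the opposite strand, a gene not analysed here. PAMH replicate 3 had the highest level of both Kcnj3 and Kcnj5, and the lowest of the PAMH samples for Kcnh2, Kcnj11 and Kcnk3. The ratio of Kcnj5 to Kcnj3 ranged from 1.96 to 2.49 in control and 2.22 to 3.001 in PAMH hearts. Of 7 atrial cardiomyocyte markers only Nppa and Stard10 were above the filter and neither passed. The summed level of the list was 54.2 to 136 FPKM in control and 89.8 to 225 FPKM in PAMH hearts, nearly all of it Nppa (46.5 to 129 and 78.4 to 217 FPKM). The part of atrial RNA in the Kcnj5 result was not tested. In these bulk samples more cells of a type and more RNA per cell cannot be told apart.

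None of the 4 genes of the ATP-gated potassium channel, which opens when ATP falls, passed the test. Kcnj11, the pore in ventricular muscle, had 21.5, 22.6, 25.7, 18.4 and 21.2 FPKM in control and 28.3, 24.3, 19.5, 36.6 and 26.3 FPKM in PAMH replicates 1 to 5. Its spread in PAMH hearts was wide, with PAMH replicate 4 highest and replicates 2 and 3 within the control range (limma adjusted p = 0.264, log2 fold change 0.27, SE 0.14). The log2 fold change was 0.16 without PAMH replicate 4 (limma adjusted p = 0.4245) and 0.38 without PAMH replicate 3 (limma adjusted p = 0.0688). Transcripts of Kcnj11 average 57.7% GC, and after removal of the length and GC trend the log2 fold change was 0.21 (limma adjusted p = 0.267). Abcc9, the sulphonylurea receptor of ventricular and vascular channels, averaged 22.6 ± 2.198 and 20.2 ± 3.04 FPKM (log2 fold change -0.16). Its log2 fold change was -0.09 without PAMH replicate 5 and -0.23 without PAMH replicate 2. With median ratio scaling it was -0.25 and with quantile normalization -0.29, and Abcc9 passed in neither. Abcc8, the receptor best known from beta cells and atrium, averaged 2.23 ± 0.249 and 2.24 ± 0.339 FPKM. Kcnj8, the vascular pore, averaged 10.3 ± 0.284 and 10.7 ± 1.154 FPKM and varied more in PAMH hearts (9.31 to 12.0 FPKM) than in control hearts (9.88 to 10.6 FPKM). Kcnj8 and Abcc9 are also markers of pericytes. Of 10 tested pericyte and smooth muscle markers Acta2 rose and 9 did not pass, with a median log2 fold change of -0.0039. The summed level of the whole list of 12 was 416 to 478 FPKM in control and 496 to 594 FPKM in PAMH hearts. Most of that sum was Des, which heart muscle also expresses (286 to 385 FPKM in control and 352 to 429 FPKM in PAMH hearts), and Acta2 (25.4 to 41.4 and 50.2 to 100.9 FPKM). The pericyte genes Pdgfrb, Rgs5, Vtn and Higd1b had log2 fold changes of -0.04, -0.01, -0.12 and -0.01, Notch3 had 0.09, and none passed. Cspg4 was under the filter, with means of 0.670 FPKM in control and 0.656 FPKM in PAMH hearts.

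The fast outward currents dominate repolarisation in the mouse ventricle, and their 3 tested genes all had negative log2 fold changes, none past the threshold. Kcna5, a pore of the ultrarapid current (chromosome 6, 126532551 to 126535412, minus strand), had 10.1, 9.50, 8.83, 10.1 and 8.66 FPKM in control and 8.54, 7.42, 7.07, 7.83 and 8.08 FPKM in PAMH replicates 1 to 5. Every PAMH value was below every control value, by a margin smaller than the spread within either group. The means were 9.44 ± 0.679 and 7.79 ± 0.571 FPKM (limma adjusted p = 0.0647, log2 fold change -0.25, SE 0.07). It was called lower with median ratio scaling (-0.34, adjusted p = 0.0108 by limma), quantile normalization (-0.37, adjusted p = 0.00725 by limma) and the filter at 5 FPKM (adjusted p = 0.0422 by limma).

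Kcnip2, whose product binds the Kcnd pores and sets the density of the transient outward current (chromosome 19, 45791839 to 45816061, minus strand), had 30.0, 27.8, 26.3, 26.8 and 26.6 FPKM in control and 25.1, 24.8, 22.6, 26.1 and 22.7 FPKM in PAMH hearts. Again no values were shared by the groups, while control replicate 3 and PAMH replicate 4 nearly met. The log2 fold change was -0.17 (SE 0.07, limma adjusted p = 0.141), and with median ratio scaling -0.27 (adjusted p = 0.0207 by limma) and with quantile normalization -0.30 (adjusted p = 0.0103 by limma). Klf15, a transcription factor known to regulate Kcnip2 in mouse heart and singled out here after its values were seen, averaged 18.7 ± 1.76 FPKM in control and 15.1 ± 1.13 in PAMH hearts. It did not pass (limma adjusted p = 0.0528). Klf15 is 1 of 14 tested regulators counted below, and its part in the level of Kcnip2 was not tested.

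Kcnd2, the main pore of the transient outward current, had 3.58, 2.54, 2.86, 2.05 and 3.42 FPKM in control and 3.69, 2.32, 2.48, 2.72 and 2.19 FPKM in PAMH hearts, with full overlap (limma adjusted p = 0.745, log2 fold change -0.08, SE 0.13). Kcnip2 RNA exceeded Kcnd2 RNA, on the per-length FPKM scale, by a ratio of 7.76 to 13.1 in control and 6.80 to 10.7 in PAMH hearts. Kcnd3, the other pore, was under the filter and uneven within both groups, from 0.197 to 1.08 FPKM in control and 0.193 to 0.694 FPKM in PAMH hearts. Kcnv2, a silent subunit that modifies other potassium channels, was also under it at 0.922 ± 0.201 and 0.630 ± 0.187 FPKM, with 3 PAMH samples below all controls.

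Kcnk3, a background potassium channel sensitive to acid, was the most abundant of the 31 genes. It had 61.3, 66.6, 59.9, 57.5 and 57.4 FPKM in control and 66.7, 75.6, 56.7, 76.3 and 60.9 FPKM in PAMH replicates 1 to 5. The PAMH samples lay on both sides of the control range (limma adjusted p = 0.365, log2 fold change 0.14, SE 0.09). The log2 fold change was 0.09 without PAMH replicate 4 and 0.20 without PAMH replicate 3. Kcnk3 shares 229 exonic bases with Gm9899 on the opposite strand, which averaged 1.90 FPKM, and no strand setting is given. In control hearts the order of mean levels after Kcnk3 was Kcnip2 (27.5 ± 1.49 FPKM), Abcc9 (22.6 ± 2.198 FPKM), Kcnj11 (21.9 ± 2.64 FPKM), Gja1 (12.8 ± 0.870 FPKM), Kcnj8 (10.3 ± 0.284 FPKM) and Kcna5 (9.44 ± 0.679 FPKM). The ranges of Abcc9 and Kcnj11 overlapped, as did those of Kcna5 and Kcnj8, and the lowest means were those of Cacna1h (0.476 FPKM) and Kcnd3 (0.545 FPKM).

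**Figure D3:**
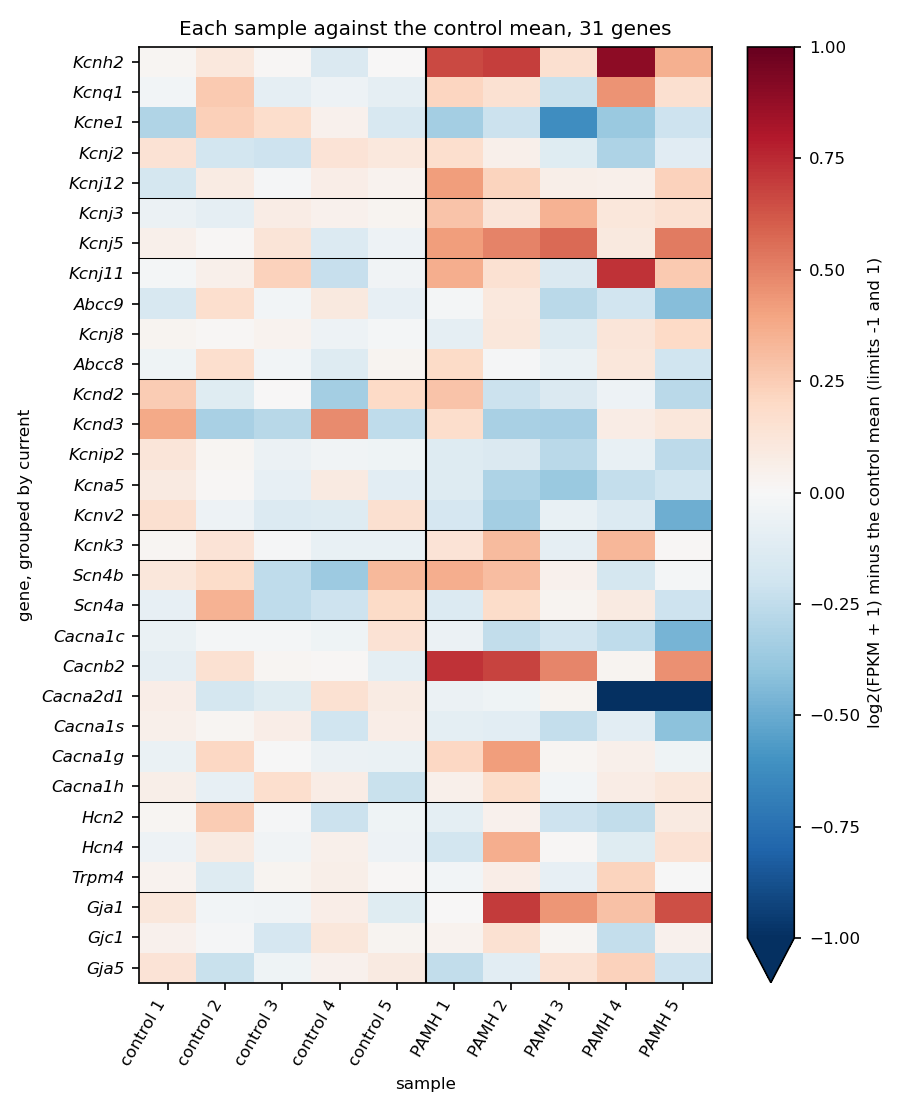
Log2(FPKM + 1) of each of the 31 genes in each sample minus the control mean of that gene, with genes in rows grouped by current and samples in columns. Red is above and blue below the control mean, on a scale from -1 to 1. Kcnh2, Kcnj5 and Cacnb2 are red in most PAMH columns, and Cacna2d1 is dark blue in PAMH replicates 4 and 5 only.

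Of the sodium channel genes neither passed. Scn4b, an accessory beta subunit, had 7.34, 7.73, 5.43, 4.96 and 8.62 FPKM in control and 8.89, 8.5, 6.90, 5.80 and 6.59 FPKM in PAMH hearts, with a spread within each group larger than the difference (limma adjusted p = 0.706, log2 fold change 0.10, SE 0.15). The log2 fold change ranged from 0.01 to 0.18 with single samples left out. Scn4a, the skeletal muscle sodium channel, averaged 2.19 ± 0.593 and 2.15 ± 0.348 FPKM (adjusted p = 0.971 by limma). Of 12 skeletal muscle markers 2 were above the filter and neither passed, Myl1 at 6.21 to 11.7 FPKM and Mybpc2 at 1.72 to 3.72 FPKM. The summed level of the list was 11.5 to 13.2 FPKM in control and 9.06 to 16.4 FPKM in PAMH hearts. The skeletal myosin genes Myh1, Myh2, Myh4 and Myh8 reached at most 0.0292 FPKM. Tnni2, under the filter, had 0.442 to 0.724 FPKM in control and 0.917 to 1.38 FPKM in PAMH hearts, and its groups did not overlap. The part of skeletal muscle RNA in the levels of Scn4a and Cacna1s was not tested.

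Among the calcium channel genes the beta subunit rose while the pore had a negative change. Cacnb2 encodes the beta subunit that brings the L-type channel to the membrane (chromosome 2, 14603088 to 14987908, plus strand). It had 1.59, 2.07, 1.79, 1.77 and 1.58 FPKM in control and 3.55, 3.41, 2.87, 1.80 and 2.78 FPKM in PAMH replicates 1 to 5. PAMH replicate 4 lay inside the control range and the other 4 above it. The mean rose from 1.76 ± 0.199 to 2.88 ± 0.689 FPKM (limma adjusted p = 0.0390, log2 fold change 0.47, SE 0.12), and without PAMH replicate 4 the log2 fold change was 0.59 (adjusted p = 0.00291 by limma). The call ended with median ratio scaling (0.41, adjusted p = 0.0785 by limma) and with the mitochondrial genes left out (0.46, adjusted p = 0.0590 by limma). Without control replicate 1, 3, 4 or 5 or PAMH replicate 1, 2 or 5 the limma adjusted p was 0.0716 to 0.0962.

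Cacna1c, the pore of the cardiac L-type channel (chromosome 6, 118587240 to 119196418, minus strand), had 5.10, 5.29, 5.31, 5.19 and 6.04 FPKM in control and 5.11, 4.37, 4.59, 4.35 and 3.62 FPKM in PAMH hearts. PAMH replicate 1 lay within the control range and the other 4 below it. The gene did not pass (limma adjusted p = 0.0973, log2 fold change -0.24, SE 0.08) except with median ratio scaling (-0.33, adjusted p = 0.0403 by limma) and quantile normalization (-0.33, adjusted p = 0.0353 by limma). The ratio of Cacnb2 to Cacna1c was 0.312, 0.391, 0.337, 0.342 and 0.262 in control and 0.694, 0.781, 0.625, 0.414 and 0.769 in PAMH replicates 1 to 5. This ratio does not depend on the scaling of a sample, but transcripts of Cacnb2 and Cacna1c differ in GC content (46.6% and 52.8%). Of the 14 subunit ratios examined it was the 1 in which the groups did not overlap, where 8.44% of all tested single genes did not. The gap was small, from 0.391 in control replicate 2 to 0.414 in PAMH replicate 4. Cacnb2 alone had passed on these same values. No test was run on the ratios.

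Cacna2d1, the alpha-2-delta subunit that aids surface delivery of the channel, had 7.84, 6.47, 6.76, 8.37 and 7.93 FPKM in control and 7.12, 7.18, 7.60, 1.58 and 2.83 FPKM in PAMH replicates 1 to 5. PAMH replicates 1 to 3 lay within the control range, and replicates 4 and 5, the pair with the fewest genes above 0, lay far under it. The log2 fold change was -0.58 (SE 0.30, adjusted p = 0.254 by limma), -0.30 without PAMH replicate 4 (adjusted p = 0.396 by limma), and -0.03 without both (adjusted p = 0.904 by limma). The fewer genes above 0 in these samples moved with the low Cacna2d1, and their part in it was not tested. Cacna1s, the skeletal muscle L-type pore, averaged 1.46 ± 0.185 and 1.16 ± 0.194 FPKM (limma adjusted p = 0.199, log2 fold change -0.19, SE 0.09). It shares 1309 of 6550 exonic bases with the antisense gene Gm37759, which averaged 0.0206 FPKM. The T-type pores, known from the conduction system and the fetal ventricle, were under the filter. Cacna1g had 0.660, 1.01, 0.733, 0.667 and 0.661 FPKM in control and 1.01, 1.32, 0.765, 0.799 and 0.686 FPKM in PAMH hearts, and Cacna1h averaged 0.476 ± 0.153 and 0.554 ± 0.0828 FPKM.

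**Figure D4:**
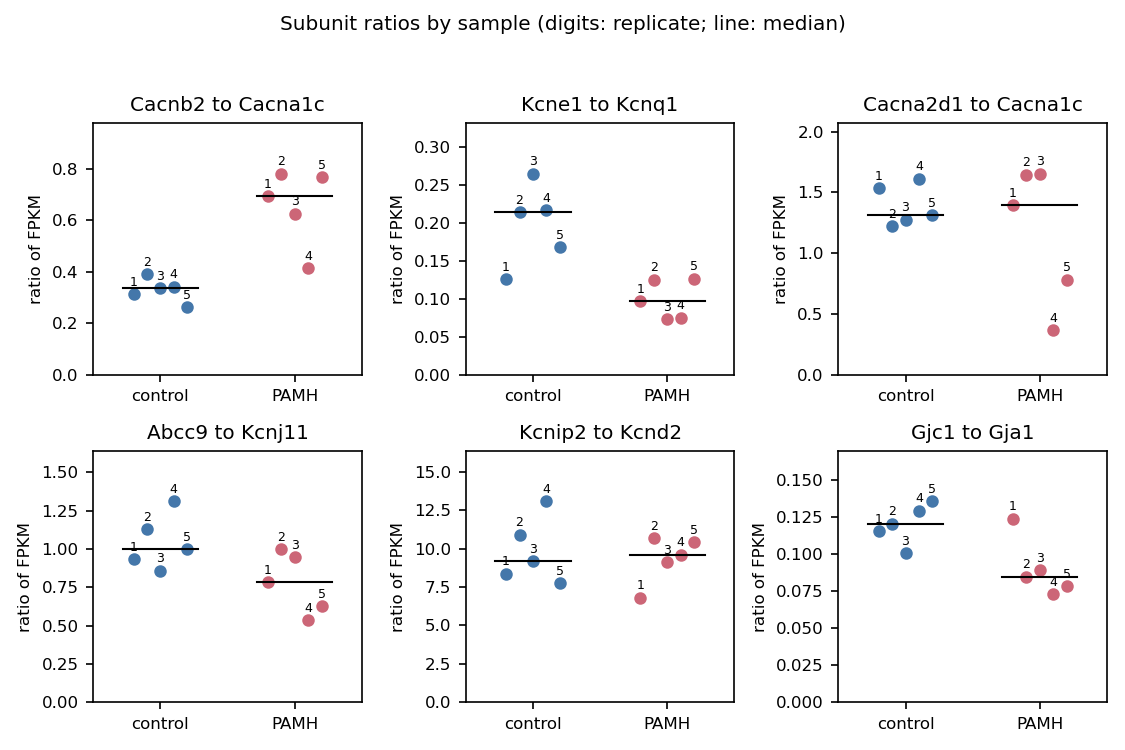
Ratio of FPKM within each sample for 6 of the 14 subunit pairs, in control (blue) and PAMH (red) hearts, with replicate numbers at the points and the median as a line. All axes start at 0. The ratio of Cacnb2 to Cacna1c separates the groups, from 0.262 to 0.391 in control and from 0.414 to 0.781 in PAMH hearts.

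Pacemaker channels, which open on hyperpolarisation, did not pass. Hcn2, the more abundant in ventricle, had 7.55, 9.03, 7.36, 6.27 and 7.18 FPKM in control and 6.88, 7.71, 6.32, 6.12 and 7.95 FPKM in PAMH hearts (limma adjusted p = 0.647, log2 fold change -0.08, SE 0.10). Hcn4, the sinus node form, had 0.918, 1.11, 0.931, 1.05 and 0.913 FPKM in control and 0.745, 1.55, 1.003, 0.828 and 1.20 FPKM in PAMH hearts. The PAMH samples lay on both sides of the controls (adjusted p = 0.827 by limma). Of 9 conduction system markers 1 was above the filter, and Isl1 was listed at 0 in all samples. Trpm4, a calcium-activated cation channel, was just under the filter, with 0.999, 0.784, 0.989, 1.04 and 0.968 FPKM in control and 0.914, 1.05, 0.846, 1.28 and 0.953 FPKM in PAMH hearts.

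Gja1, the main connexin of the ventricle (chromosome 10, 56377330 to 56402513, plus strand), had 13.9, 12.6, 12.5, 13.5 and 11.7 FPKM in control and 12.9, 21.4, 17.7, 15.9 and 20.6 FPKM in PAMH replicates 1 to 5. PAMH replicate 1 lay within the control range and the other 4 above it. The means were 12.8 ± 0.870 and 17.7 ± 3.49 FPKM, and the gene narrowly missed the threshold (limma adjusted p = 0.0607, log2 fold change 0.42, SE 0.12). It passed without PAMH replicate 1 (0.52, adjusted p = 0.0203 by limma) and in 4 other settings of 22, with the filter at 5 FPKM, rescaling to the same sum, sample weights, and the length and GC trend removed. The log2 fold change ranged from 0.30 to 0.52 over all settings.

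Gja5, the connexin of atrium, conduction system and arterial endothelium, was under the filter, with 0.947, 0.516, 0.724, 0.827 and 0.886 FPKM in control and 0.496, 0.649, 0.965, 1.07 and 0.539 FPKM in PAMH hearts, and the groups overlapped. Gja5 shares 165 exonic bases with Gpr89 on the opposite strand, which averaged 2.62 FPKM. Gjc1, the connexin of nodal tissue and of the embryonic heart, averaged 1.54 ± 0.181 and 1.55 ± 0.242 FPKM (adjusted p = 0.989 by limma). The ratio of Gjc1 to Gja1 was 0.101 to 0.136 in control and 0.0728 to 0.124 in PAMH hearts.

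**Figure D5:**
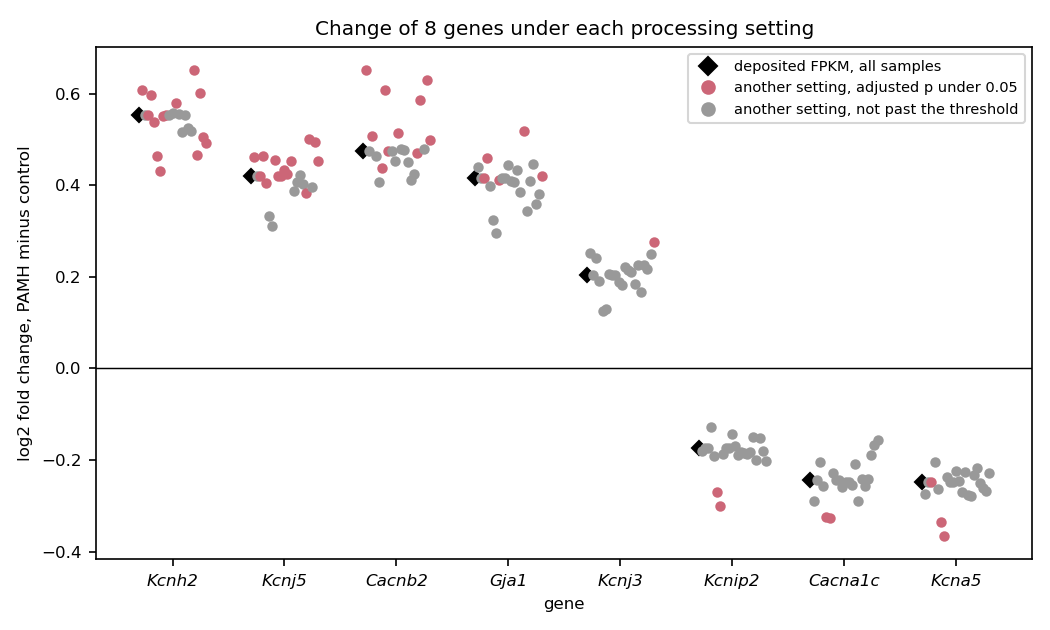
Log2 fold change, PAMH minus control, of 8 genes under the deposited FPKM with all samples (black diamond) and under each other setting that kept the gene (circles, red where the adjusted p was under 0.05). No gene changed sign in any setting, and Kcnh2 ranged from 0.43 to 0.65.

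Genes around these channels were counted in 6 wider lists. Of their 70 tested genes 4 rose and none fell (5.71% called), close to the share over all tested genes (6.19% called, 4.95% higher). None of 5 tested other potassium channel genes, 6 other sodium and calcium channel genes, and 2 other connexins passed. Median log2 fold changes of these lists were 0.21, 0.11 and 0.14, beside 0.07 for all tested genes. The 2 connexins were Gja3 (0.32) and Gja4 (-0.03). For the pumps and exchangers, the disc and scaffold genes and the regulators described next, the medians were 0.04, 0.12 and 0.10. Of 21 pumps, exchangers and other channels 1 rose and 20 did not pass. It was Atp1b1, the beta subunit of the sodium pump, with 51.6, 55.3, 47.1, 51.0 and 50.1 FPKM in control and 76.9, 78.5, 66.7, 79.0 and 78.6 FPKM in PAMH replicates 1 to 5. All PAMH values lay well above the controls (limma adjusted p = 0.00159, log2 fold change 0.56, SE 0.07).

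Of 22 intercalated disc and scaffold genes 1 rose and 21 did not pass. Cav3, the caveolin of muscle, which anchors several channels in caveolae, had 31.3, 31.5, 32.0, 29.7 and 28.7 FPKM in control and 36.9, 38.6, 33.2, 44.4 and 38.4 FPKM in PAMH hearts (limma adjusted p = 0.0390, log2 fold change 0.31, SE 0.08). Of 14 transcription factors known to regulate channel genes 2 rose and 12 did not pass. Irx4, a ventricular factor, had 4.74, 5.65, 4.13, 4.73 and 5.19 FPKM in control and 8.70, 9.16, 6.03, 9.97 and 9.05 FPKM in PAMH hearts (limma adjusted p = 0.00694, log2 fold change 0.69, SE 0.12). Nkx2-5, a factor of cardiac and conduction system development, had 19.7, 20.3, 19.8, 18.6 and 18.1 FPKM in control and 29.8, 33.6, 22.2, 42.4 and 27.5 FPKM in PAMH hearts (limma adjusted p = 0.0181, log2 fold change 0.63, SE 0.13). The groups did not overlap in any of these 4 genes, which the test had picked on the same values. Among tested genes of the wider lists that did not pass, Gja3, Tmem65 and Prox1 were also higher without overlap, and Klf15 lower. Over all tested genes the groups did not overlap in 8.44%. Nkx2-5, Irx4, Cav3, Atp1b1 and Kcnh2 had their lowest PAMH value in replicate 3 and their highest in replicate 4. Kcnj5 and Cacnb2, which also passed, went the other way, with their lowest PAMH value in replicate 4. In the fifth of genes with the highest GC content, the median difference from the control mean was -0.03 in PAMH replicate 3 and 0.26 in PAMH replicate 4. Other measures also had these replicates at the ends of the PAMH range. The summed cardiomyocyte markers were at 5230 FPKM in PAMH replicate 3 and 9340 FPKM in PAMH replicate 4. Summed ventricular markers were at 4866 and 7019 FPKM, and the mitochondrial share of FPKM was 56.6% and 51.5%. The part of such sample-wide differences in this order was not tested.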

How the data were processed

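The RNA-seq values of 5 control and 5 PAMH hearts were analysed as the FPKM the authors deposited, 1 table of 55335 Ensembl genes, in which 55154 identifiers were found in GENCODE vM21 (GRCm38). Per the submitters' processing notes the study used HISAT2 2.2.1, DESeq2 1.18.1, HTSeq 0.13.5, Trimmomatic 0.38, FastQC 0.11.9, R 3.4.1 and build mm10, with no step assigned to a tool. For the FPKM, the tool, annotation and strand setting are not given in sources used here. More than 6 decimals were found in 97.3% of 15768 genes with several transcripts and in 0.612% of 10946 with a single one. Whole reads were therefore not recovered, and depth is unknown.

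Log2(FPKM + 1) of the 9439 genes averaging 1 FPKM or more was fitted with limma 3.58.1 in R 4.3.3 (group term, empirical Bayes with trend, 2-sided, Benjamini-Hochberg over all tested genes, threshold 0.05), which understates changes of low genes. The procedure was tested on simulated data. The simulation drew independent noise for each gene, with no sample-wide shift, so it does not cover the scaling and GC differences between samples. The alternatives are named in the closing section. The 31 genes, the lists and the tests were chosen with earlier results of these data known. Named with every sample's value were genes past the threshold, genes whose groups did not overlap and a fixed panel of main subunits, and in the wider lists the genes past the threshold. Kcne5 was matched as Kcne1l. Some genes of these currents are not analysed here.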

Additional observations from a re-analysis of the deposited data

Results flagged for a closer look

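In 90 groups of 5 samples (31 genes and 14 ratios in each condition), 6 had a highest or lowest sample set apart from the rest, where chance flags about 5% of groups. All 6 were control samples. The screen looks for 1 sample apart from the rest, so it does not flag samples that lie apart together. Cacna2d1 in PAMH replicates 4 and 5 (1.58 and 2.83 FPKM, the others 7.12 to 7.60) was such a case. Control replicate 2 was high for Kcnq1 (6.55 FPKM, the others 4.89 to 5.16) and for Cacna1g (1.01 FPKM, the others 0.660 to 0.733), and low for Trpm4 (0.784 FPKM, the others 0.968 to 1.04). Control replicate 5 was high for Cacna1c (6.04 FPKM, the others 5.10 to 5.31). Control replicate 4 was low for Cacna1s (1.14 FPKM, the others 1.49 to 1.57) and high for the ratio of Hcn4 to Hcn2 (0.168, the others 0.122 to 0.127).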

How the results depend on the processing

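Results were recomputed in 22 other settings, listed here with the values that changed. Beside 3 genes of the 24 higher and 0 lower, limma called 0 higher with no filter, 1 lower with the filter at 5 FPKM, 1 higher and 3 lower with median ratio scaling, 3 lower with quantile normalization, 5 higher with sample weights and 5 higher after removal of the length and GC trend, a setting chosen after seeing the data. With quantile normalization Kcnh2 and Cacnb2 stayed higher, while Kcnj5 did not pass (limma adjusted p = 0.139). The filter at 5 FPKM kept 14 of the 24 genes and left out Cacnb2, and the higher genes there were Kcnh2, Kcnj5 and Gja1. Leaving out each sample gave 0 to 3 higher and 0 lower. Of all tested genes (467 higher, 117 lower), 196 were higher and 68 lower with no filter, 75 lower with the filter at 5 FPKM, 218 and 212 with median ratio scaling, 234 and 246 with quantile normalization, 1038 and 176 with sample weights, 279 higher without PAMH replicates 4 and 5, and 710 higher with the trend removed. Leaving out each sample gave 206 to 979 higher and 69 to 147 lower, with the most of both without PAMH replicate 3. Of the wider lists (4 called), 2 genes passed with no filter, 8 with the filter at 5 FPKM, 15 with sample weights, 10 with the trend removed and 2 to 14 with each sample left out. A pseudocount of 0.1, rescaling to the same sum, leaving out mitochondrial genes and robust empirical Bayes moved none of these counts by over 1.5 times.

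With the replicate block, 1 of the 24 genes was higher (Kcnj5), and 175 of all tested genes were higher and 64 lower. Residuals of same-numbered samples correlated at -0.195 to 0.16, and 1 of 5 control samples correlated best with its own number, so the numbers were not taken as a pairing.

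The log2 fold changes that changed sign were all small. Scn4a was 0.022 with the same sum, 0.012 with sample weights, 0.023 without PAMH replicates 4 and 5, 0.023 with the trend removed and -0.074 to 0.077 with single samples left out. Gjc1 was -0.007 without mitochondrial genes, -0.056 with median ratio scaling, -0.015 with quantile normalization, -0.003 with the trend removed and -0.040 to 0.062 with single samples left out. Abcc8 was -0.007, -0.064, -0.048 and -0.033 in the same 4 settings, and -0.042 to 0.055 with single samples left out. Kcnj8 was -0.046 with median ratio scaling, -0.074 with quantile normalization and -0.035 without PAMH replicates 4 and 5. Hcn4 was -0.004 with median ratio scaling and -0.036 (without PAMH replicate 2) to 0.101 with single samples left out. Kcnj2 was 0.033 without PAMH replicates 4 and 5 and 0.019 with the trend removed, where Kcnd2 was 0.005. The cause of these changes was not tested. Depth is unknown, so the limit it sets on the genes under the filter cannot be given.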

Other observations

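A pair of genes outside the 31, chosen after their values were seen, had levels above several of them. Gja3, a connexin best known from the lens, averaged 3.97 ± 0.212 FPKM in control and 5.25 ± 0.940 FPKM in PAMH hearts, above Gjc1 and Gja5 in both groups; its groups did not overlap, and it did not pass the test (limma adjusted p = 0.0687, log2 fold change 0.32). Kcng2, a silent potassium channel subunit, averaged 23.0 and 28.5 FPKM, above Kcna5 and Kcnd2 in both groups, and did not pass either (limma adjusted p = 0.118, log2 fold change 0.29).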
